A study of Mus musculus with 4 samples.

Results

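The 9 genes of prostaglandin and leukotriene synthesis were followed in cardiac macrophages and related myeloid cells of the mouse: Ptgs1, Ptgs2, Ptges and Hpgds of the cyclooxygenase branch, Alox5, Alox5ap, Lta4h and Ltc4s of the 5-lipoxygenase branch, and the lipoprotein-associated phospholipase Pla2g7. These 9 members were taken by gene symbol from the 31053 genes of the count tables, and each symbol occurred once. Their values were molecule (UMI) counts per cell from droplet single-cell RNA sequencing, summed by library and by marker-gated cell type and given per 1000000 UMIs of the sum (CPM).

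Cells were EGFP+ and Ly6G- and were sorted from hearts of CSF1R-EGFP mice, the MacGreen line on a C57Bl6J background, in which the mouse Csf1r promoter drives EGFP in every animal of both groups. The single baseline library held the cells of 3 pooled hearts without surgery. In each of 3 infarct libraries the cells came from 1 heart, 7 days after ligation of the left coronary artery, with the remote non-infarcted zone cut away. Mice were 12 to 16 weeks old. Both sexes were used in the study as a whole, and the sex of the hearts in each library is not given in the sources used here. The baseline hearts had no surgery, so the effects of infarction, of the operation and of cutting away the remote zone cannot be told apart, and with 1 baseline library, infarct against baseline had no test.

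Both branches start from arachidonic acid that phospholipases free from membranes. The cyclooxygenases, constitutive Ptgs1 and inducible Ptgs2, make prostaglandin H2, which terminal synthases turn into prostaglandin E2 (Ptges) or prostaglandin D2 (Hpgds). The 5-lipoxygenase Alox5 needs its membrane partner Alox5ap to make leukotriene A4, which Lta4h turns into the neutrophil attractant leukotriene B4 and Ltc4s into the cysteinyl leukotriene C4. Pla2g7 breaks down platelet-activating factor and oxidized phospholipids. In tissues the leukotrienes are made mainly by myeloid cells and mast cells. The lipids of both branches set vascular leak, leukocyte entry and the end of inflammation.

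After filtering, 41533 cells were kept in the 4 libraries, between 10117 and 10782 in each, with median depths of 6399 UMIs per cell at baseline and 8470 to 8557 in the infarct libraries. The gates were set on a few marker genes, none of them a member, and were led by genes of the labelled types: Cd163, Lyve1, Vsig4 and Folr2 in resident macrophages, Ly6c2 and Plac8 in classical monocytes, Ace and Ear2 in non-classical monocytes, Cd209a in type 2 dendritic cells, Ccr7 and Fscn1 in mature dendritic cells, and S100a8 and S100a9 in granulocytes. Other macrophage gates, named only by their genes or state, were led by Gpnmb, Fabp5 and Spp1 (with the immunoglobulin gene Igkc also among the leading genes), by Saa3, Marco, Slpi and Arg1, by interferon-induced Ifit genes, by the cell cycle genes Mki67 and Top2a, and by high or low class II genes. Macrophage gates required C1q and the monocyte, dendritic, granulocyte and B gates required its near absence, so C1q itself could not be compared between them. Gate sizes differed strongly between groups: resident macrophages numbered 2408 at baseline and 27, 34 and 57 in the infarct libraries, and Saa3 Arg1 macrophages 0 at baseline and 771, 46 and 355. Markers of mast cells or basophils, platelets and eosinophils were low over all cells. The 7 mast cell or basophil genes summed to 2.12 to 3.77 CPM with Tpsb2 at 0 in all 4 libraries. The 5 platelet genes summed to 1.58 to 10.7 CPM, and the 3 eosinophil genes to 1.05 to 1.96 CPM with Epx at 0. Some other lists were higher in at least some libraries. Fibroblast genes summed to 19.5 CPM at baseline and 252, 54.8 and 68.3 CPM in the infarct libraries. Erythroid genes summed to 62.5 CPM and 0.396, 0.266 and 119 CPM, and endothelial genes to 50.6 CPM and 11.7, 13.3 and 12.9 CPM. B cell genes summed to 41.7 to 72.3 CPM and cardiomyocyte genes to 20.7 to 40.2 CPM. Between 26 and 34 cell barcodes were shared by any pair of libraries. B-gated cells (64 at baseline and 17, 6 and 22 in the infarct libraries) served as the reference for free RNA, although in the infarct libraries they carried Alox5ap at 717, 658 and 559 CPM and Pla2g7 at 295, 165 and 134 CPM beside 137 and 30.9 CPM at baseline. Their part in low values of other types was not tested.

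The genes did not share one cell type. Among the gated types of the infarct libraries, resident and Saa3 Arg1 macrophages had high levels of Alox5, Ltc4s and Ptgs1, granulocytes carried Ptgs2 and Alox5, type 2 dendritic cells carried Lta4h, and most macrophages gated on C1q carried Hpgds. Each type was compared with all other cells of the same 3 libraries in a paired edgeR quasi-likelihood fit across all genes, with Benjamini-Hochberg adjusted p and a threshold of 0.01. Of 108 pairs of gene and type, 27 were higher and 42 lower, against 9.46% and 10.6% of all pairs of gene and type tested.

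Of the 9 genes, 4 were higher in Saa3 Arg1 macrophages (Ltc4s, Ptges, Alox5, Ptgs1) and 2 lower (Hpgds, Pla2g7), where 10.2% of all genes tested were higher and 8.84% lower. The median log2 fold change of the 9 genes was 0.49 in this type, against -0.06 over all genes tested. Saa3 Arg1 macrophages also carried genes of the resident marker list, at a sum of 466 to 619 CPM beside 123 to 183 CPM in MHC-II-low and 3090 to 3280 CPM in resident macrophages, and their part in the genes high in both types was not tested. Lyve1, one of the genes that led the resident gate, was 84.2, 194 and 95.7 CPM in Saa3 Arg1 macrophages. In resident macrophages 3 were higher (Alox5, Ltc4s, Ptgs1) and 2 lower (Ptgs2, Pla2g7), against 2.83% and 4.01% of all genes. Ltc4s was itself among the 10 leading genes of the resident gate. All 6 calls in Saa3 Arg1 macrophages were kept in 12 of 12 alternatives, and of the 5 in resident macrophages 2 were (Alox5, Ltc4s). The resident Pla2g7 call was lost in 6 alternatives, among them leaving out any 1 infarct library (adjusted p = 0.0131, 0.035 and 0.206 without replicate 1, 2 or 3, edgeR), and the Ptgs1 call in 3, among them without replicate 3 (adjusted p = 0.0278, edgeR). In granulocytes 3 were higher (Ptgs2, Alox5, Ptgs1) and 1 lower (Hpgds), against 4.05% and 7.45%.

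Monocytes and dendritic cells had more genes lower than higher. In classical monocytes 3 were higher (Ptgs2, Alox5ap, Lta4h) and 4 lower, against 12.7% and 13% of all genes, and in non-classical monocytes 2 were higher (Alox5ap, Pla2g7) and 4 lower, against 8.11% and 9.47%. In type 2 dendritic cells 3 were higher (Lta4h, Ptgs2, Alox5ap) and 4 lower, against 13.1% and 16%. In mature dendritic cells 1 was higher (Ptgs2) and 6 lower, against 9.92% and 12.7%. The median log2 fold change of the members was -2.19, leaving out Ptgs1, Ptges and Alox5, which had 0 UMIs there. The median over all genes tested, -0.32, kept genes at 0 UMIs, so the 2 medians are unlike measures. Hpgds and Ltc4s were lower in each of these 4 types. In type 2 dendritic cells all 7 calls were kept in every alternative, and in non-classical monocytes 2 of the 6 (Ptgs1, Hpgds).

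In the other macrophage gates most calls depended on the alternative: 3 of 7 were kept in all of them in Gpnmb Spp1 macrophages, 3 of 4 in cycling macrophages, and 0 of 4, 0 of 5 and 0 of 6 in MHC-II-high, MHC-II-low and interferon-response macrophages, counting calls on more than 3 UMIs. In Gpnmb Spp1 macrophages 2 were higher (Pla2g7, Hpgds) and 5 lower, against 11.9% and 14.2% of all genes. In MHC-II-high macrophages 1 was higher (Hpgds) and 3 lower, against 9.87% and 12.1%, and in MHC-II-low macrophages 3 were higher (Hpgds, Ptgs1, Pla2g7) and 2 lower, against 9.6% and 13.5%. In interferon-response macrophages 2 were higher (Hpgds, Pla2g7) and 4 lower, against 8.37% and 5.49%, and in cycling macrophages 0 were higher and 5 lower, against 12.6% and 10.7%. For that 0, the edgeR fit had 2 genes higher at an unadjusted p under 0.05, and the DESeq2 Wald test had 1, with 0 at the adjusted threshold.

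**Figure D1:**
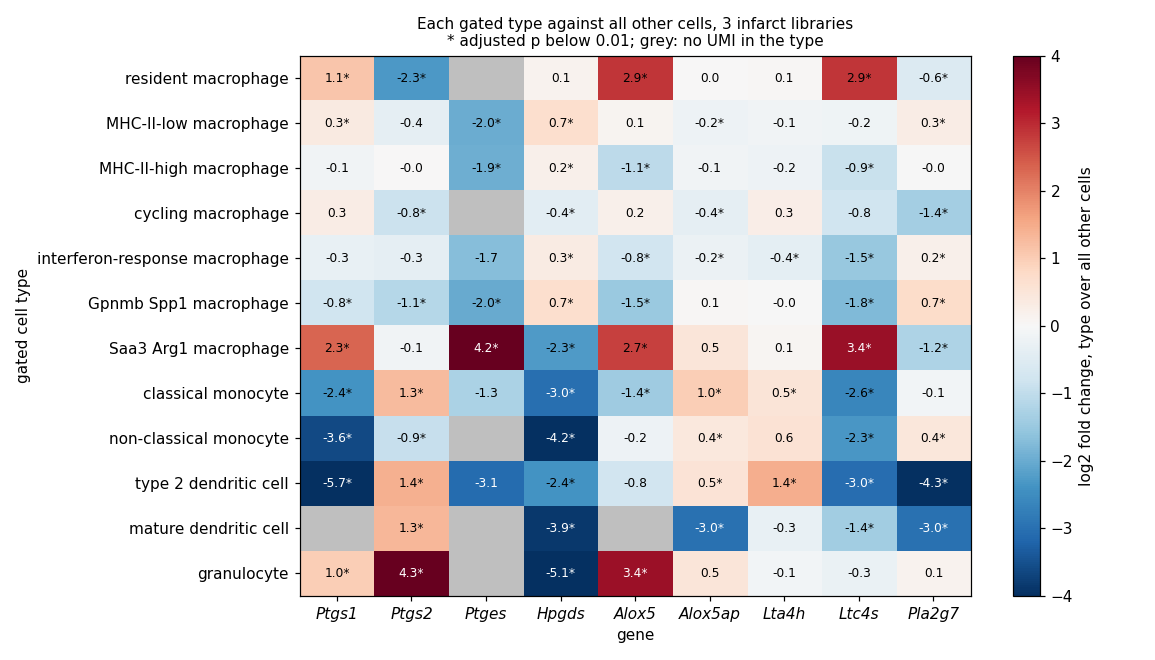
Colour and number give the log2 fold change of each gene (columns) in each gated cell type (rows) against all other cells of the 3 infarct libraries; an asterisk marks an adjusted p below 0.01 and grey a type with no UMI of the gene. Ltc4s and Alox5 are higher in resident macrophages (log2 2.85 and 2.86) and in Saa3 Arg1 macrophages (3.44 and 2.74), and Ptgs2 and Alox5 in granulocytes (4.29 and 3.42).

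Ptgs1, the constitutive cyclooxygenase (chr2:36230426-36252272, plus strand, GRCm38), was measured at 64.6 CPM over all baseline cells and at 57.8, 39.2 and 62.8 CPM in the infarct libraries. Within the infarct libraries its level in Saa3 Arg1 macrophages was 188, 381 and 248 CPM, 5.05-fold that of all other cells (adjusted p = 2.54e-09, edgeR). Every one of these values lay over the highest value of the MHC-II-high (38.6 to 55.7 CPM) and MHC-II-low macrophages (51.9 to 70.8 CPM). Resident macrophages held 110, 116 and 163 CPM and granulocytes 130, 95.9 and 162 CPM, so these 2 types could not be ordered beyond their spread. The granulocyte call rested on 63 UMIs and was lost in 5 of 12 alternatives. Ptgs1 was nearly missing from dendritic cells: 5 UMIs in type 2 dendritic cells and 0 in mature dendritic cells, at least 18.4-fold lower than in all other cells, with the bound set at 3 UMIs over the 3 libraries.

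Against baseline, Ptgs1 stood lower in MHC-II-high macrophages (82.3 CPM, 95% counting interval 78.5 to 86.2, against 55.7, 38.6 and 46.2) and in interferon-response macrophages (75.6 CPM, 54.7 to 102, against 41.7, 36.3 and 37.7). It stood higher in resident macrophages (93.9 CPM, 89.6 to 98.4, against 110, 116 and 163), on 28, 29 and 75 UMIs in the infarct libraries. Each of these 3 shifts was under 2-fold, with all 3 infarct libraries on one side of the baseline value. Also lower, by under 2-fold, were MHC-II-low macrophages (102 CPM, 90.7 to 114, against 69.9, 51.9 and 70.8). The same held for cycling macrophages (118 CPM, 97.4 to 141, against 59.7, 48.6 and 92.8). In Gpnmb Spp1 macrophages Ptgs1 was 13.4 CPM at baseline, from 62 cells, and 34.7, 29.4 and 25.4 CPM after infarction. In granulocytes the baseline value of 9.29 CPM rested on 1 UMI (interval 0.235 to 51.8) against 130, 95.9 and 162 CPM.

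Ptgs2, the inducible cyclooxygenase (chr1:150100031-150108227, plus strand), was by far highest in granulocytes, at 982, 915 and 882 CPM in the infarct libraries and 1360 CPM at baseline. That was 19.6-fold the level of all other infarct cells (adjusted p = 1.26e-72, edgeR), a call kept in all 12 alternatives. After thinning each cell to 2000 UMIs, 49.6% of infarct granulocytes held a Ptgs2 UMI (62 of 125, exact binomial interval 40.5 to 58.7), against 2.38% of B-gated cells (1 of 42). The sort had removed Ly6G+ cells, so these are the granulocytes that passed it. The 3 eosinophil genes summed to 303 to 364 CPM in them, with Epx, 1 of the 3, at 0 in all 4 libraries. Whether eosinophils were in the gate, and their part in the level, was not tested. Granulocytes made up 0.362% to 0.593% of the infarct cells and held 3.31% to 4.97% of the Ptgs2 UMIs.

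Mononuclear cells shared the rest of the Ptgs2 signal. Classical monocytes had 77, 119 and 68.4 CPM (2.39-fold, adjusted p = 0.000159), type 2 dendritic cells 66.3, 144 and 106 CPM (2.68-fold, adjusted p = 2.33e-07) and mature dendritic cells 100, 75.4 and 110 CPM (2.51-fold, adjusted p = 4.63e-08, edgeR in each). Those 3 types overlapped one another. The mature dendritic call was lost with stricter gates and turned with cells thinned to 2000 UMIs (log2 -0.14, adjusted p = 0.894, edgeR). Resident macrophages lay at the other end, at 0, 16.1 and 10.9 CPM from 9 UMIs, 4.88-fold lower than all other cells (adjusted p = 1.11e-06), a call lost without infarct replicate 3 (adjusted p = 0.0382). Over all cells Ptgs2 was 28.4 CPM at baseline (27.1 to 29.7) and 39.2, 39.9 and 39.8 CPM after infarction, and in MHC-II-high macrophages 20.7 CPM (18.8 to 22.7) and 39.1, 34.1 and 40.3 CPM. In Gpnmb Spp1 macrophages the order was the opposite, 28.8 CPM (19.4 to 41) at baseline, from 62 cells, and 16.6, 19.4 and 17.7 CPM after infarction.

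Hpgds, the haematopoietic prostaglandin D synthase (chr6:65117293-65144908, minus strand), followed the macrophages that carry complement C1q. In the infarct libraries it was 229, 256 and 239 CPM in MHC-II-low macrophages, 217, 250 and 230 CPM in Gpnmb Spp1 macrophages and 209, 237 and 193 CPM in resident macrophages, which overlapped one another. Saa3 Arg1 macrophages stood apart from the other macrophages, at 35.5, 34.4 and 37.2 CPM, 4.8-fold lower than all other cells (adjusted p = 6.16e-10, edgeR). They also had less C1q, at 8010 to 9910 CPM of C1qa, C1qb and C1qc together against 13900 to 17200 in MHC-II-high macrophages. Classical monocytes had 12.5, 21.1 and 32.9 CPM, type 2 dendritic cells 21.9, 31.6 and 42.6 CPM and non-classical monocytes 3.73, 14.2 and 11 CPM. Granulocytes held 3 Hpgds UMIs in all.

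Hpgds was higher after infarction in 2 cell types in which it was low. In classical monocytes it was 5.15 CPM at baseline (3.33 to 7.61) and 4.31-fold higher in the mean of the infarct libraries, and in type 2 dendritic cells 6.87 CPM (3.76 to 11.5) and 4.67-fold higher. The C1q level of the same cells, a measure of macrophage RNA in them that the gate kept low, was 171 CPM at baseline and 226, 254 and 262 CPM after infarction in the monocytes, and 177 CPM and 154, 221 and 284 CPM in the dendritic cells; its part in the Hpgds values was not tested. The mast cell or basophil genes, a cell type that also makes prostaglandin D2, summed to 31.4 to 82.4 CPM in the type 2 dendritic cells of the infarct libraries. The same list summed to 44.8 to 75.4 CPM in mature dendritic cells, which had 5.37, 22.6 and 9.15 CPM of Hpgds. The part of these genes was not tested either. B-gated cells, the reference for free RNA, had 13.3 CPM of Hpgds at baseline, from 3 UMIs. After infarction they had 12.8, 47 and 29.8 CPM, from 1, 2 and 4 UMIs. The infarct values of the monocytes and type 2 dendritic cells lay in or next to that range, and the part of free RNA was not tested. In Gpnmb Spp1 macrophages Hpgds was 107 CPM at baseline (88.4 to 129), from 62 cells, and 2.16-fold higher. C1q in that gate was 6150 CPM at baseline and 14000, 17000 and 15000 CPM after infarction, and its part was not tested. In MHC-II-high macrophages the baseline value (170 CPM) lay inside the infarct range (143, 196 and 190 CPM).

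Ptges, which makes prostaglandin E2 from the cyclooxygenase product (chr2:30889471-30929863, minus strand), was scarce, with 24 UMIs in the baseline library and 254, 46 and 95 in the infarct libraries. Saa3 Arg1 macrophages held 155, 3 and 39 of these, or 61%, 6.52% and 41.1% of the Ptges UMIs in 7.42%, 0.427% and 3.51% of the cells. Their level was 25.7, 7.37 and 12 CPM against a mean of 0.781 ± 0.38 CPM (SD, n = 3) elsewhere (18.4-fold, adjusted p = 2.46e-08, edgeR). All 12 alternatives kept this call. Part of the Ptges UMIs of each infarct library lay in cells not assigned to a gated type, with the largest share in replicate 2. In the infarct libraries resident macrophages, granulocytes, non-classical monocytes and mature dendritic cells held 0 UMIs and type 2 dendritic cells 1. In these types a low level was not detectable at this depth. Cycling macrophages also held 0 UMIs but were called lower (adjusted p = 0.0093, edgeR). With the bound set at 3 UMIs over the 3 libraries, they lay at least 3.96-fold under all other cells.

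The 200 bases before the RefSeq starts of Ptgs2 and Hpgds (GRCm38.p6) are printed because the genes had opposite patterns, one highest in granulocytes and lowest in resident macrophages, the other spread over macrophages gated on C1q. Capitals mark every match, on either strand, to the letters GAGGAA (the core of PU.1 sites, the myeloid lineage factor), GGGCGG (a GC box), TTGCNNAA (a C/EBP half-palindrome) and TATAAA.
Ptgs2, chr1:150099831-150100030, plus strand: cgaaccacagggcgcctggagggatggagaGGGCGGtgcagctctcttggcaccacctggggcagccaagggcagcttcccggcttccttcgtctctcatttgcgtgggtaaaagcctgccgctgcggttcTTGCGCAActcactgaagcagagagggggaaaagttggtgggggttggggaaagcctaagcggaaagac
Hpgds, chr6:65144731-65144930, minus strand: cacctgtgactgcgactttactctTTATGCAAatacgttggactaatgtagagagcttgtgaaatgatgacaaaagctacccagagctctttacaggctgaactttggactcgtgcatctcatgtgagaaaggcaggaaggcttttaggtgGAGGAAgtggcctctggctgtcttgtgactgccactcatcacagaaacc
Ptgs2 held 1 GC box and 1 match to TTGCNNAA, and Hpgds 1 match to GAGGAA and 1 to TTGCNNAA. Of the 32851 promoters of the table, 19% held GAGGAA, 31% GGGCGG, 7.47% TTGCNNAA and 9.96% TATAAA in the same window. Among the 8 members with an entry, 5, 4, 2 and 0 held these letters, in that order. A match says only that the letters are there.

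Alox5, the 5-lipoxygenase (chr6:116410077-116461178, minus strand), was the one member at 10 CPM or more that differed by 2-fold or more between infarct and baseline over all cells: 79.6 CPM at baseline (77.5 to 81.8) and 9.91, 6.55 and 13.1 CPM after infarction, 8.09-fold lower in the mean. Of the 8 members at 10 CPM or more in a group, 0 were higher by that rule (2-fold or more with all 3 infarct libraries on one side) and 1 lower, against 2.35% and 7.21% of the 8249 genes at that level. Most gates showed the same direction. In MHC-II-high macrophages, which made up 34.7% to 36% of every library, Alox5 was 69.3 CPM at baseline (65.8 to 72.9) and 5.77, 4.49 and 5.55 CPM after infarction. The thinned share of these cells with an Alox5 UMI was 12.7% at baseline (404 of 3190) and 1.04%, 0.916% and 0.754% in the infarct libraries, and unthinned 29.2% (1038 of 3556) and 3.62% over the infarct libraries. B-gated cells held 0 of 63 and 0 of 42 at baseline and after infarction, with upper limits of 5.69% and 8.41%, so the infarct share cannot be told from background. Lyve1, a marker of resident macrophages, which held 53.2% of the baseline Alox5 UMIs, was also lower after infarction inside the gates: 38.2 CPM at baseline against 2.01, 0.321 and 2.1 CPM in MHC-II-high macrophages, 253 against 7.31, 0.639 and 21 CPM in MHC-II-low macrophages and 59.8 against 0.267, 0 and 0.593 CPM in interferon-response macrophages. The part of resident macrophages or their free RNA in the baseline Alox5 values of other gates was not tested.

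By the 2-fold rule Alox5 was lower in 8 of the 10 gates compared, from 2.8-fold in non-classical monocytes to 13.4-fold in interferon-response macrophages. Resident macrophages and granulocytes were the 2 exceptions. With cells thinned to 2000 UMIs the pair was lost in classical monocytes (log2 -1.53 to -0.44) and turned to the opposite side in type 2 dendritic cells (log2 -1.8 to 1.51), and the other 6 were kept in every alternative. In resident macrophages Alox5 was 149 CPM at baseline (144 to 155) and 82.7, 84.3 and 73.9 CPM after infarction, 1.86-fold lower. In granulocytes it was 139 CPM (78 to 230) and 165, 148 and 73 CPM, from 15 UMIs and from 24, 20 and 14. The few resident macrophages of the infarct libraries thus stood 7.27-fold over all other cells (adjusted p = 6.13e-22, edgeR), granulocytes 10.7-fold (adjusted p = 1.01e-20) and Saa3 Arg1 macrophages, at 39.9, 86 and 71.4 CPM, 6.67-fold (adjusted p = 1.11e-09). These 3 types overlapped in their levels, and all 3 calls were kept in 12 of 12 alternatives. Saa3 Arg1 macrophages held 27.4%, 5.69% and 20.8% of the Alox5 UMIs of the infarct libraries.

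Ltc4s, the leukotriene C4 synthase (chr11:50236461-50238616, minus strand), differed widely between infarct libraries, with 168, 44.3 and 133 CPM over all cells beside 151 CPM at baseline. At baseline 78.8% of its UMIs lay in resident macrophages, 23.5% of the cells, at 418 CPM (409 to 427). In infarct replicates 1 and 3 Saa3 Arg1 macrophages held 38.6% and 27.1% of the UMIs in 7.42% and 3.51% of the cells, and in replicate 2, which had 46 such cells, 8.16% in 0.427%. The level inside that gate was 953, 833 and 947 CPM, 10.9-fold the level of all other cells (adjusted p = 9.3e-11, edgeR). The 3 libraries, far apart over all cells, lay close together inside the gate. Resident macrophages of the infarct libraries had 1050, 406 and 1210 CPM (7.23-fold, adjusted p = 5.2e-87). Both calls were kept in all 12 alternatives.

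In 4 other macrophage gates (resident, MHC-II-high, MHC-II-low and cycling) infarct replicate 2 was the lowest of the 3 in Ltc4s, Saa3 and Arg1 alike. In the Gpnmb Spp1 gate (Ltc4s at 23.4, 32.4 and 34.4 CPM) and the interferon-response gate (32.1, 32.6 and 27.9 CPM) it was the lowest in Saa3 and Arg1 but not in Ltc4s. The part of Saa3 Arg1 macrophages or their free RNA in the values was not tested. MHC-II-high macrophages had 123, 31.4 and 55.1 CPM of Ltc4s and 87.2, 3.47 and 64.7 CPM of Saa3 in the 3 infarct libraries, and resident macrophages had Saa3 at 248, 8.03 and 2120 CPM. Cells of the MHC-II-high gate with no UMI of Saa3 or Arg1 were a subset chosen after seeing the data. Their Ltc4s was 39.3 CPM at baseline and 61.6, 27.2 and 33.2 CPM after infarction. Cells of the gate with at least 1 such UMI had 210 CPM of Ltc4s at baseline, from 24 cells. In the infarct libraries they had 207, 86.1 and 119 CPM. In the MHC-II-low gate the Saa3-free and Arg1-free cells had 161 CPM at baseline and 50.4, 49.9 and 51.2 CPM after infarction. The whole gate had 201 CPM (186 to 218) and 107, 57.9 and 119 CPM. Of its 593 Ltc4s UMIs at baseline, 139 lay in 9 cells with at least 1 Saa3 or Arg1 UMI (1170 CPM). After infarction such cells had 186, 114 and 286 CPM. The log2 ratio of infarct to baseline was -1.67 in the Saa3-free and Arg1-free cells and -1.09 in the whole MHC-II-low gate. In the MHC-II-high gate these ratios were 0.05 and 0.78. The lower Ltc4s of the MHC-II-low gate also went with less Lyve1 (253 CPM at baseline and 7.31, 0.639 and 21 CPM after infarction), and the part of resident macrophages, the type with most baseline Ltc4s, was not tested. It was under 2-fold without infarct replicate 2 (log2 -0.83).

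Ltc4s was low in monocytes and dendritic cells, at 11.2 to 28.3 CPM in the classical monocytes and 11.2 to 17.4 CPM in the type 2 dendritic cells of the infarct libraries, and lower than in all other cells by 6.06-fold and 8.24-fold (adjusted p = 1.94e-05 and 3.29e-10, edgeR). Against 4.74 and 6.38 CPM at baseline both were higher. In granulocytes Ltc4s was at 0 UMIs at baseline and at 82.4, 103 and 141 CPM after infarction. B-gated cells of the infarct libraries held 128, 70.5 and 37.3 CPM beside 4.42 CPM at baseline, and Saa3 in the granulocytes was 659, 0 and 610 CPM. Granulocytes thus stood under the B-gated cells in replicate 1 and over them in replicates 2 and 3. Classical monocytes (28.3, 12.9 and 11.2 CPM) and type 2 dendritic cells (17.4, 14.1 and 11.2 CPM) stood under the B-gated cells in all 3 infarct libraries. The part of free RNA in the higher values of these types was not tested.

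The 200 bases before the starts of Alox5 and Ltc4s are printed because both genes were high in resident and Saa3 Arg1 macrophages, with the same letters in capitals as above.
Alox5, chr6:116461179-116461378, minus strand: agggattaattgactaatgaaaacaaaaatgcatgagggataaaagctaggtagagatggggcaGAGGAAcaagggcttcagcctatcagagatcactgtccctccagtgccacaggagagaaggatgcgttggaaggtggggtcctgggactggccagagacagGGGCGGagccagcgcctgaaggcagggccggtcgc
Ltc4s, chr11:50238533-50238732, minus strand: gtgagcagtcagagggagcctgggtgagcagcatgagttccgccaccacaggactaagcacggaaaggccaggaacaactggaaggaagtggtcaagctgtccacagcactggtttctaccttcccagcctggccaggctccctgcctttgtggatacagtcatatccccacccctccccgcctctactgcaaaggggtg
Alox5 held 1 match to GAGGAA and 1 to GGGCGG, and Ltc4s none of the 4 motifs in this window, so no motif of this set was common to the pair.

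Alox5ap, the membrane partner of Alox5 (chr5:149264767-149288153, plus strand), did not follow Alox5. It was 767 CPM over all baseline cells and 863, 715 and 753 CPM after infarction, and 69% of baseline cells and 70.6% of infarct cells held a UMI at 2000 UMIs per cell. In MHC-II-high macrophages, where Alox5 was 13.1-fold lower after infarction, Alox5ap was 618 CPM at baseline (607 to 628) and 790, 649 and 640 CPM. It was higher in classical monocytes (1360, 1470 and 1470 CPM, 1.98-fold, adjusted p = 1.43e-05, edgeR) and type 2 dendritic cells (1100, 1180 and 994 CPM, 1.45-fold, adjusted p = 2.85e-06) and lower in mature dendritic cells (77, 143 and 77.8 CPM, 7.88-fold, adjusted p = 8.08e-60). The level in mature dendritic cells lay under that of the B-gated cells of the same libraries.

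Lta4h, the leukotriene A4 hydrolase (chr10:93453411-93484875, plus strand), was highest in type 2 dendritic cells among the 12 types tested. Type 2 dendritic cells had 94.2, 62.4 and 81.8 CPM, 2.73-fold the level of all other cells (adjusted p = 2.92e-09, edgeR), and 80 CPM at baseline. The 7 macrophage gates lay between 19.5 and 55.1 CPM in the infarct libraries, with interferon-response macrophages lowest (19.5, 20.9 and 24 CPM). Classical monocytes were 1.44-fold higher (51.5, 37.6 and 37.2 CPM, adjusted p = 0.00302), a call lost in 4 of 12 alternatives. Non-classical monocytes had 48.5, 36.8 and 57.2 CPM, beside 57.9 CPM at baseline, and were not called (adjusted p = 0.072, edgeR). Over all cells the level was 39.2 CPM at baseline (37.7 to 40.7) and 34.2, 27.9 and 30.5 CPM after infarction.

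Pla2g7 (chr17:43568098-43612201, plus strand) was 258 CPM at baseline (254 to 262) and 286, 339 and 330 CPM after infarction over all cells. Gpnmb Spp1 macrophages had 443, 448 and 472 CPM, 1.66-fold the level of all other cells (adjusted p = 1.32e-05, edgeR), beside 237 CPM at baseline (208 to 268). The 2 groups did not overlap, and the ratio was 1.92-fold. The baseline gate held 62 cells, at a median of 17579 UMIs against 11082 to 11719 after infarction. C1q in that gate was 6150 CPM at baseline and 14000, 17000 and 15000 CPM after infarction. The part of these differences in the Pla2g7 values was not tested. Non-classical monocytes had 489, 411 and 475 CPM and granulocytes 432, 391 and 475 CPM, within the range of the Gpnmb Spp1 gate or next to it. Type 2 dendritic cells had 7.77, 21.6 and 21 CPM, 20.2-fold lower than all other cells (adjusted p = 1.92e-14), and mature dendritic cells 37.6, 56.6 and 18.3 CPM. Saa3 Arg1 macrophages had 190, 98.3 and 138 CPM, 2.33-fold lower (adjusted p = 2.72e-05).

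**Figure D2:**
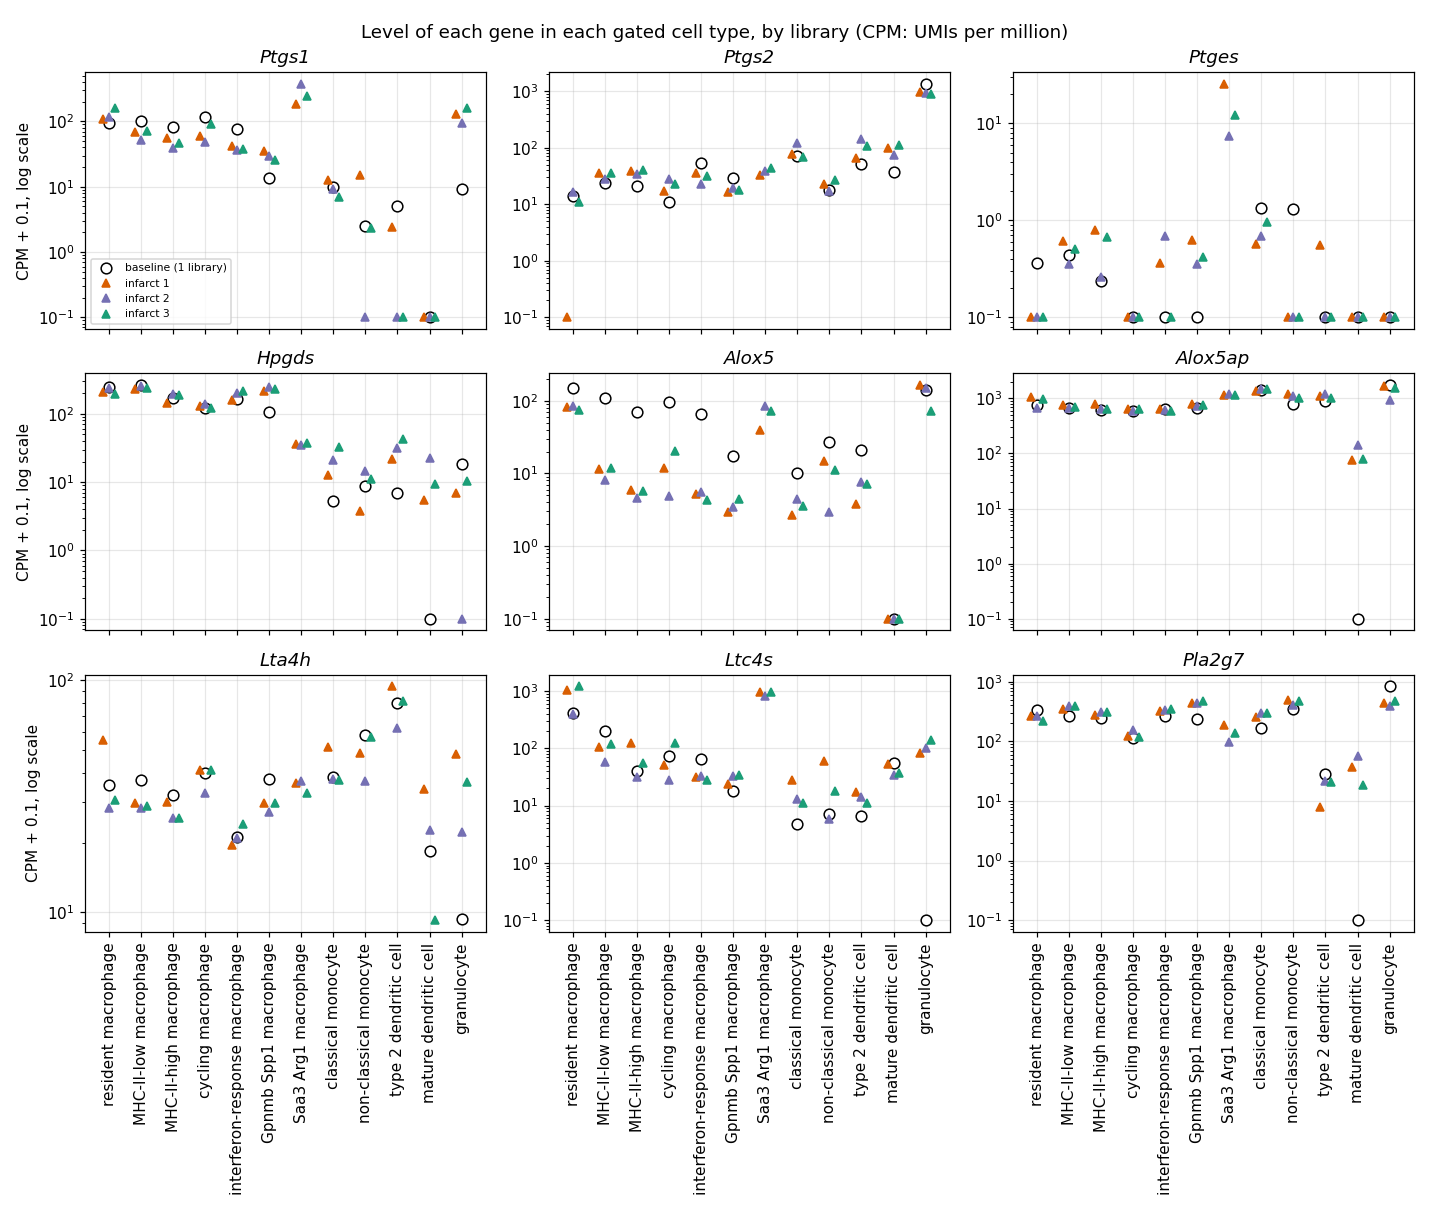
Each panel gives 1 gene, with CPM plus 0.1 on a log axis for 12 gated cell types; the open circle is the baseline library and the triangles the 3 infarct libraries, and points at 0.1 have 0 UMIs. The infarct triangles of Alox5 lie under the baseline circle in resident macrophages and in 8 further gates and around it in granulocytes. Those of Alox5ap lie near it except in mature dendritic cells, where the 7 baseline cells held 0 UMIs. No baseline cell passed the Saa3 Arg1 gate.

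Within the 10 gates that had at least 20 cells in every library, 76 of 90 pairs of gene and type reached 10 CPM in a group. Of these, 11 were higher and 11 lower after infarction by 2-fold or more with all 3 libraries on one side, against 6.03% and 8.47% of all such pairs of gene and type. Alox5 made up 8 of the 11 lower pairs, and Hpgds in granulocytes and Ltc4s in MHC-II-low and interferon-response macrophages the other 3. The 11 higher pairs were 3 of Hpgds, 3 of Ltc4s, 2 of Ptgs1, 2 of Ptgs2 and 1 of Lta4h (granulocytes, from 1 baseline UMI). These comparisons share the one baseline library. The Hpgds pair in granulocytes rested on 2 baseline and 3 infarct UMIs. No pair of Alox5ap, Pla2g7 or Ptges passed. Of the 22 pairs, 12 were kept in all 6 alternatives and 10 were lost in at least 1. Without infarct replicate 2 the ratio fell under 2-fold for Ltc4s in MHC-II-low macrophages (log2 -0.83) and for Ptgs2 in cycling macrophages (1.04 to 0.85) and type 2 dendritic cells (1.05 to 0.76), and without replicate 1 for Ltc4s in type 2 dendritic cells (1.16 to 0.99). Thinning the cells ended the pairs of Ltc4s in MHC-II-low macrophages and of Ptgs2 in cycling macrophages, those of Hpgds and Lta4h in granulocytes, and that of Ltc4s in type 2 dendritic cells, beside the 2 of Alox5. Taking the mean of each cell's CPM ended those of Ltc4s in MHC-II-low macrophages (log2 -0.67) and Ptgs2 in type 2 dendritic cells (0.83). Stricter gates ended those of Ptgs1 in Gpnmb Spp1 and Ltc4s in interferon-response macrophages.

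**Figure D3:**
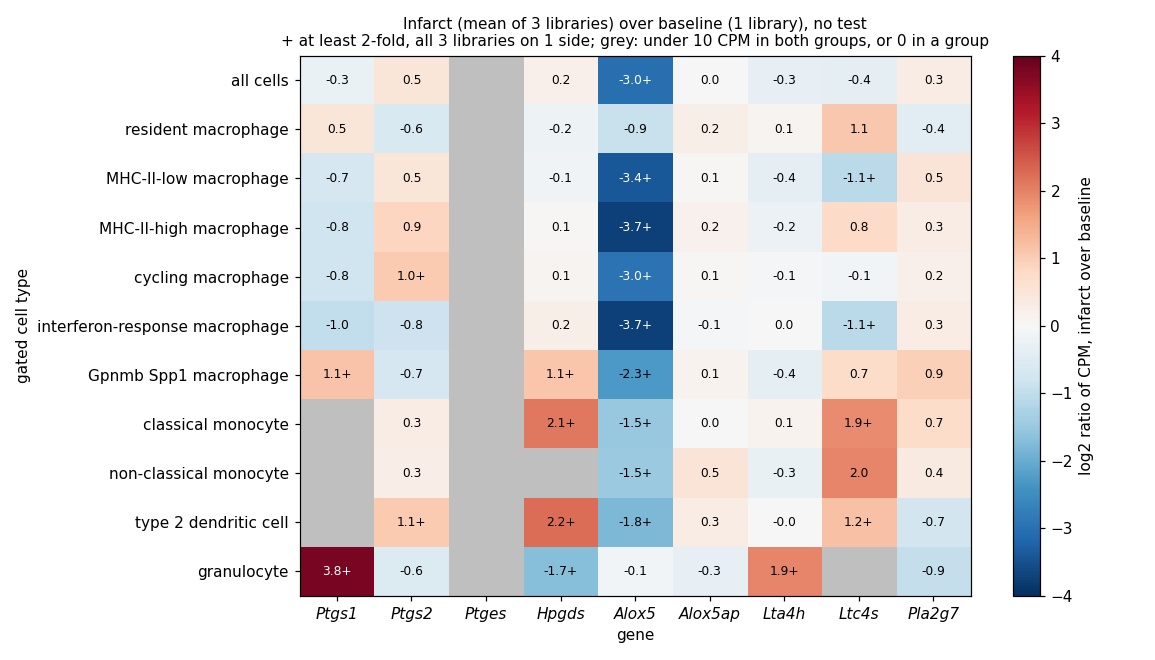
Colour and number give the log2 ratio of the mean of 3 infarct libraries to the 1 baseline library for each gene (columns), over all cells (top row) and in 10 gated types; a plus sign marks a ratio of 2-fold or more with all 3 libraries on one side, and grey a pair under 10 CPM in both groups or at 0 in one. Alox5 carries the plus sign over all cells and in 8 types, with log2 ratios of -0.89 in resident macrophages and -0.12 in granulocytes.

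**Figure D4:**
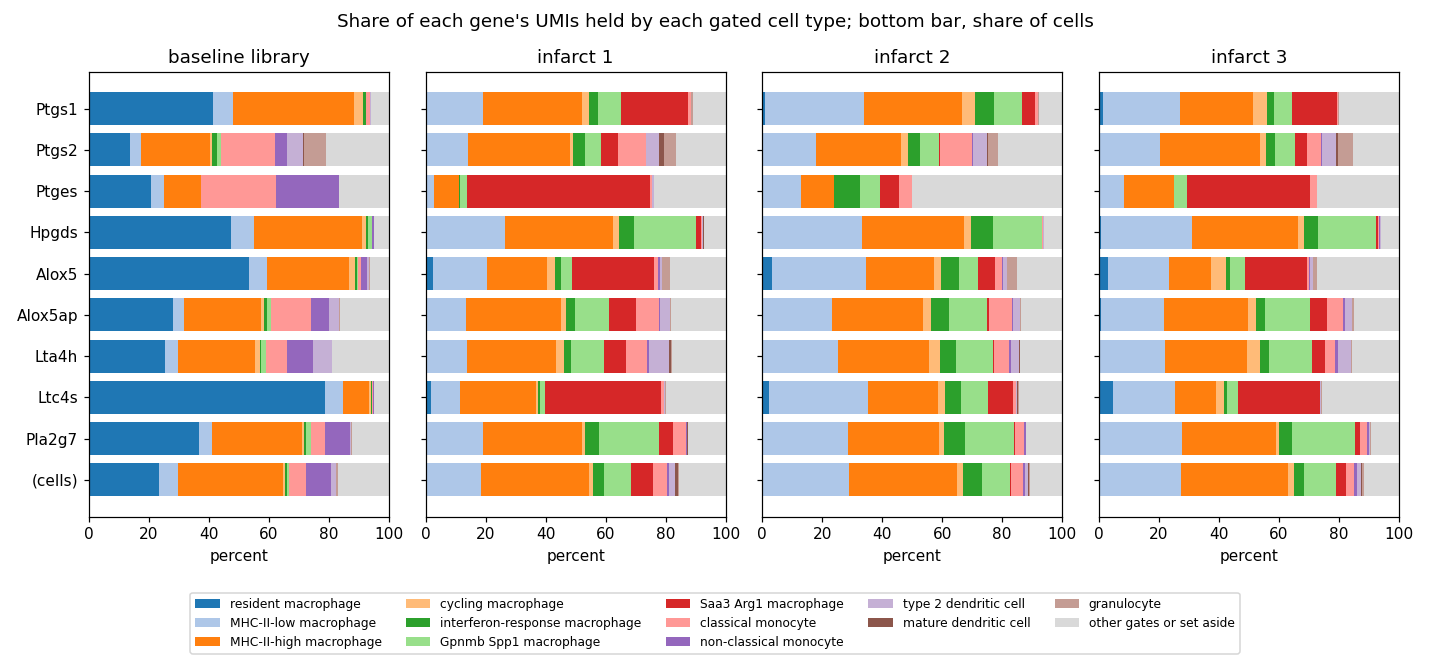
Stacked bars give the percentage of each gene's UMIs found in each gated type for the 4 libraries, with the share of cells in the bottom bar; light grey holds other gates and cells set aside. Resident macrophages hold 78.8% of Ltc4s and 53.2% of Alox5 UMIs at baseline, and Saa3 Arg1 macrophages 38.6% and 27.4% in infarct 1.

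Other genes of eicosanoid and platelet-activating factor metabolism were read from a list of 66 names, of which 63 had a single row in the tables and 30 reached 10 CPM over all cells. By the 2-fold rule 0 were higher and 2 lower after infarction, against 2.35% and 7.21% of all genes at that level, so the lower share was close to that of all genes. Hpgd, the dehydrogenase that inactivates prostaglandins, was 668 CPM at baseline and 101, 171 and 173 CPM after infarction. Pla2g2d, a secreted phospholipase, was 26.9 CPM and 0.362, 0.714 and 0.398 CPM. Named after their values were seen, the cytosolic phospholipase Pla2g4a, which frees arachidonic acid, was 52.6 CPM and 34.1, 33.5 and 38.1 CPM, and Cysltr1, a receptor for cysteinyl leukotrienes, 108 CPM and 127, 95.6 and 101 CPM.

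Across the 12 types of the infarct libraries, 536 pairs of listed gene and type were tested, of which 84 were higher and 119 lower, against 9.46% and 10.6% of all pairs. In Saa3 Arg1 macrophages 11 of 45 tested genes were higher and 7 lower, against 10.2% and 8.84% of all genes. The median log2 fold change was 0.27 over the listed genes with a UMI there, and -0.06 over all genes tested. Alox15, another lipoxygenase, was itself among the 10 leading genes of the Saa3 Arg1 gate. Over all cells of the infarct libraries it was 9.86, 0.352 and 12.6 CPM. In Saa3 Arg1 macrophages it was 137 ± 84.5 CPM, and 1.79 CPM in the remaining cells (3 libraries, mean and SD). The log2 difference was 6.5 with a standard error of 0.301 (adjusted p = 1.83e-11, edgeR). Ptgir, the prostacyclin receptor, Ptgis, the prostacyclin synthase, and Fpr2, a receptor for the pro-resolving lipid lipoxin A4, were also higher there (log2 2.61, 2.32 and 2.34, adjusted p = 7.8e-07, 0.000139 and 4.95e-09). Hpgd (log2 -2.81, adjusted p = 1.08e-10) and the glutamyl transferase Ggt5 (log2 -1.26, adjusted p = 0.00122) were lower.

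In resident macrophages 7 of 44 were higher and 4 lower, against 2.83% and 4.01% of all genes. Pla2g2d was 25.9 ± 16.6 CPM (SD, n = 3), beside 0.403 CPM elsewhere (log2 5.81, adjusted p = 3.66e-15, from 24 UMIs), and Hpgd 469 ± 209 CPM against 147 CPM (log2 1.43, adjusted p = 4.64e-21, edgeR). Ltb4r1, the high-affinity leukotriene B4 receptor, held 1 UMI there. It was higher in classical monocytes, at 128 ± 34 CPM (log2 2.61, adjusted p = 4.18e-07), and non-classical monocytes, at 88.4 ± 17.6 CPM (log2 1.73, adjusted p = 1.8e-15). In granulocytes 5 of 44 were higher, among them Fpr2 (log2 3.77, adjusted p = 1.79e-31) and Ggt5 (88.3 ± 68.8 CPM, log2 2.83, adjusted p = 1.3e-11), and 7 lower, against 4.05% and 7.45% of all genes.

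In classical monocytes 8 of 45 were higher and 10 lower (12.7% and 13% of all genes), in non-classical monocytes 6 of 44 and 12 (8.11% and 9.47%), and in type 2 dendritic cells 9 of 45 and 15 (13.1% and 16%). Mature dendritic cells had 5 of 44 higher and 17 lower (9.92% and 12.7%), and the lower ones included Hpgd (at 1 UMI) and Cysltr1 (log2 -4.21). The median log2 fold change was -1.3 over the listed genes with a UMI there. Over all genes tested, with or without a UMI there, it was -0.32. Gpnmb Spp1 macrophages had 11 of 45 higher and 10 lower (11.9% and 14.2%), MHC-II-high macrophages 8 of 44 and 10 (9.87% and 12.1%), and MHC-II-low macrophages 5 of 44 and 8 (9.6% and 13.5%). Interferon-response macrophages had 5 of 46 higher and 7 lower (8.37% and 5.49%), and cycling macrophages 4 of 46 and 12 (12.6% and 10.7%). In MHC-II-high macrophages the prostaglandin E2 receptor Ptger4 (97.6 ± 12.2 CPM) and Hpgd (207 ± 45.7 CPM) were among the higher genes (log2 0.7 and 0.93, adjusted p = 1.72e-05 and 6.76e-05, edgeR).

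Over 50 sums of cell type and library, the genes whose log2(CPM + 1) most closely followed each of 8 members (Ptges, under 10 CPM on average, was left out) were described by Pearson's r, with no test, since sums of 1 library share depth and free RNA and C1q was used to gate. Ptgs2 was closest to Il1b, the cytokine interleukin-1 beta (r = 0.862). Hpgds was closest to C1qb (r = 0.878), and Ltc4s to Fcna, a ficolin of tissue macrophages (r = 0.851). Alox5ap was closest to Nfam1 (r = 0.911) and to the leukocyte integrin Itgb2 (r = 0.907), Pla2g7 to C5ar2 (r = 0.889) and Ptgs1 to Rab11fip5 (r = 0.856). Alox5 and Lta4h had no gene over 0.8, with Cass4 (r = 0.78) and Taf13 (r = 0.72) at the top. Of the 24 leading genes, 8 were the same over the 38 sums of the infarct libraries alone, Il1b, Fcna, Nfam1 and C5ar2 among them. C1qb, Itgb2, Rab11fip5, Cass4 and Taf13 were not among the leading genes there, where Hpgds was closest to Ms4a14 (r = 0.908).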

How the data were processed

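The deposited files held UMI counts per gene and cell barcode, produced by the authors against the mouse mm10 reference by Cell Ranger (version 3.1.0 per the file headers, 3.0.1 per the submitters' processing notes), with 1 library per file and no normalization. Barcodes outside 500 to 40000 UMIs, or with 200 genes or fewer, were dropped, and 13 mitochondrial genes were left out of sums. The 9 genes, the gates and the lists were chosen with earlier results of these data known, and gate limits were set after marker counts were seen. Counts were summed by gate and library in Python 3.11.15. A type was tested against all other cells of its library with edgeR 4.0.16 (R 4.3.3), with the library as a block since both sums come from 1 heart, if it had at least 20 cells in each infarct library. Alternatives used DESeq2 1.42.0 (size factors or Wald test), no filter, no block, other comparators, thinned cells, doublet removal and stricter gates. The doublet caller of scanpy 1.11.5 marked 0% to 2.22% of cells and did not work on the infarct libraries, so doublets were kept, and the 8.1% to 8.63% highest scores were removed as an alternative. Named genes of the wider list were those past the threshold in one direction in all 3 infarct libraries, at most 6 a type by size. Exact Poisson and exact binomial 95% intervals and the floor of 3 UMIs cover counting error only. The fits were tested on simulated data. Promoters came from RefSeq on GRCm38.p6, gene coordinates from the GENCODE annotation on GRCm38. The counting method's handling of genes that overlap members (such as Gm26542 at Ltc4s) was not examined.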

Additional observations from a re-analysis of the deposited data

Results flagged for a closer look

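In 5 genes all 3 infarct libraries lay over the 95% counting interval of the baseline value in one gated type and under it in another, at 10 CPM or more, a difference that was not tested with 1 baseline library. For Ptgs1 the log2 ratio of infarct to baseline was 3.8 in granulocytes, from 1 baseline UMI, and -0.97 in interferon-response macrophages, a gap of 4.77. For Ptgs2 it was 1.05 in type 2 dendritic cells and -0.83 in interferon-response macrophages, a gap of 1.88. For Hpgds it was 2.22 in type 2 dendritic cells and -0.21 in resident macrophages, a gap of 2.43. Its ratio in granulocytes was lower (-1.69, from 2 baseline UMIs), with a baseline interval of 2.25 to 67.1 CPM. Infarct replicates 1 and 3 (6.86 and 10.4 CPM) lay inside that interval and replicate 2 (0 CPM) under it. For Ltc4s it was 1.88 in classical monocytes and -1.09 in MHC-II-low macrophages, a gap of 2.97. For Pla2g7 it was 0.94 in Gpnmb Spp1 macrophages and -0.95 in granulocytes, a gap of 1.89. Lta4h (1.94 in granulocytes, from 1 baseline UMI, and -0.38 in Gpnmb Spp1 macrophages) and Alox5ap (0.52 in non-classical monocytes and -0.33 in granulocytes) also had all 3 libraries on opposite sides of baseline, but with libraries inside the interval in at least 1 of the types.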

How the results depend on the processing

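Of the 65 calls on more than 3 UMIs, 33 were kept in every alternative run. Without the library block the calls among the 9 genes went from 69 to 38 and those in the wider list from 203 to 120, where the fewer calls follow a fit that no longer pairs sums of 1 heart. Leaving out each infarct library gave 50 to 66 calls among the 9 genes, 143 to 187 in the wider list, 22 to 24 pairs within types and 1 gene over all cells, with 19 calls lost without infarct replicate 3. Hpgds in MHC-II-high macrophages turned to a log2 fold change of -0.04 (adjusted p = 0.474, edgeR) against mononuclear phagocytes alone, and Ptgs2 in mature dendritic cells to -0.14 (adjusted p = 0.894) in thinned cells; the causes were not tested. Of the 24 genes most like a member, 8 remained over infarct sums alone. TMM scaling moved the median log2 ratio of infarct to baseline over all genes from -0.21 to 0.1. The resident gate, with 27 to 57 infarct cells, and the single baseline library set the limits of depth.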
